A study of Mus musculus with 8 samples.

Results

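The BCL-2 family genes encode the proteins that decide whether the outer mitochondrial membrane is opened during apoptosis. In all, 10 of them were followed here: the 3 pro-survival genes Bcl2, Bcl2l1 and Mcl1 and the 7 pro-death genes Bax, Bak1, Bid, Bcl2l11, Pmaip1, Bbc3 and Bmf. They were found by their mouse symbols, which were matched to the RefSeq accessions of the array probes. All 10 had a probe and all 10 passed the filter on dim probes, among 19120 genes measured in all.

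RNA came from primary microglia, the resident macrophages of the brain, of C57BL/6 mice, and each sample was hybridised to a 1-colour Agilent array. The cells were kept for 3 h with 1 of 4 treatments: PBS, the recombinant Fc part of an antibody, Fc joined to Ecrg4 residues 71 to 132, or Fc joined to Ecrg4 residues 133 to 148, each protein at 20 µg/ml. Ecrg4 is a secreted precursor protein. Each treatment had 2 arrays, numbered in the labels as set 1 and set 2. The labels do not tie a set to its own culture or animal, so p-values measure only the spread between these samples, which may be technical.

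Pro-survival proteins hold the pore-forming effectors BAX and BAK in check. BH3-only proteins are the stress sensors of the family: they bind pro-survival proteins, and some also activate the effectors directly. Many BH3-only genes are controlled at the level of transcription, and microglia, like other macrophages, depend on survival signals from their surroundings.

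Levels are log2 signals with the 75th percentile of each array at 0. They compare arrays for 1 probe, and are not set against the level of another probe. Probes well above background numbered 24214 to 29437 per array. Arrays of a set resembled each other more (correlation across genes 0.994 to 0.997 in set 1 and 0.975 to 0.990 in set 2) than the duplicates of a treatment did (0.953 to 0.962). The summed signal of the 8 microglial markers was 484 to 598 times the 75th percentile, with 7 or 8 of them well above background, although Cx3cr1 lay at 4.58 to 4.71 in set 1 and at -3.25 to -0.74 in set 2. The summed signal of the 5 fibroblast markers was 23.6 to 51.4 in set 1 and 0.374 to 0.577 in set 2. Of the 6 astrocyte markers, all were well above background on each array of set 1 and 1 to 5 on those of set 2. Their summed signals were 10.2 to 18.7 and 12.5 to 14.4, but their median level was 0.07 to 1 in set 1 and -4.95 to -3.5 in set 2. Aldh1l1 was higher in set 2, at 3.59 to 3.83 against 2.33 to 2.97 in set 1. Each of the others was lower in set 2, such as Gfap at -6.23 to -3.66 against 1.11 to 2.43. Treatments were therefore compared within each set, and the part of these other cell types in the results was not tested.

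Among the pro-death genes, 3 BH3-only genes stood apart with Ecrg4(71-132). Bcl2l11, which encodes BIM, a strong activator of the effectors, was higher on both Ecrg4(71-132) arrays than on all other 6 arrays by its brighter probe, while its dimmer probe was higher on the Ecrg4(71-132) array of set 2 only. Bmf, which encodes a BH3-only protein tethered to the cytoskeleton, and Bbc3, which encodes PUMA, a target of p53, were lower on both Ecrg4(71-132) arrays than on all other 6. The other 7 genes, by the brighter probe where there were 2, stayed within 1.31-fold in both sets of the 4 comparisons made. No member passed the test across all genes in any comparison (limma, adjusted p = 1), and none of all 19120 genes did.

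The sequences upstream of these 3 genes show, for each gene, 1 of the windows in which transcription factor motifs were searched. They are the 250 bases before a RefSeq transcript start in GRCm38.p6, at chr2:128125788-128126037 on the plus strand for Bcl2l11, chr7:16310011-16310260 on the plus strand for Bbc3 and chr2:118549687-118549936 on the minus strand for Bmf. Each is written 5′ to 3′ along its gene, and capitals mark a match to the forkhead box O core motif on either strand.
Bcl2l11: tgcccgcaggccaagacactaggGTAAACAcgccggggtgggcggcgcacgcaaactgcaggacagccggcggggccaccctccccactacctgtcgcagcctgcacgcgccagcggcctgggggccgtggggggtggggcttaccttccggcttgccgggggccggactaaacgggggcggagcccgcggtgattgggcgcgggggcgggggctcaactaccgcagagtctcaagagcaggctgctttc
Bbc3: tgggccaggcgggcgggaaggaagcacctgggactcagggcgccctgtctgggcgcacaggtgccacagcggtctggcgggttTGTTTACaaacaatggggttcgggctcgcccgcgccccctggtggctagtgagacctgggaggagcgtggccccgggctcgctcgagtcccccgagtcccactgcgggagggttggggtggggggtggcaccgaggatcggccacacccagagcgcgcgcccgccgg
Bmf: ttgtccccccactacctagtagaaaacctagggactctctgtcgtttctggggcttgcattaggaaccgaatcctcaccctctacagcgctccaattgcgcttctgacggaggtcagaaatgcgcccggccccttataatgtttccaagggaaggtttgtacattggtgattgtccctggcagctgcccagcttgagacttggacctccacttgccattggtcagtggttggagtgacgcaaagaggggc
The forkhead core was searched as GTAAACA on both strands, because forkhead box O factors are known regulators of Bcl2l11 and Bbc3 in other cells. It was found in 3.17% of the 32851 windows of this length that were searched (1040 windows). Some genes have more than 1 window, and 3.54% of the 27025 genes had a match in any window. Windows of 9 members were searched, all but Pmaip1, and 2 members, Bcl2l11 and Bbc3, had a match in any window. The match ended 221 bases before the start of the Bcl2l11 transcript shown and 161 bases before that of Bbc3. For these 2 genes the window shown was the only one with a match, and their other windows held none. No window of Bmf held these letters. A match of letters does not show binding, and the part of forkhead box O factors in these levels was not tested. The AP-1 motif TGANTCA, in 6.75% of the windows and 7.82% of the genes, was in no window of a member. The NF-kB motif was read as GGG, any 2 bases and TTTCC, and was in 1.41% of the windows and 1.65% of the genes. It was found upstream of Bcl2l1, Mcl1 and, at a start other than the one shown, Bbc3. Both motifs were read on both strands, and no window of a member held more than 1 of the 3 motifs.

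The pro-survival genes were compared first. Bcl2, the founding member of the family, had levels in set 1 of -0.36 with PBS, -0.45 with Fc, -0.32 with Ecrg4(71-132) and -0.07 with Ecrg4(133-148). In set 2 the levels were 0.08, 0.01, -0.31 and 0.03 in the same order. Ecrg4(71-132) thus lay above Fc by 0.13 in set 1 and differed from it by -0.32 in set 2, and the treatments overlapped.

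Bcl2l1 encodes BCL-XL, the pro-survival protein that also guards many non-dividing cells. Its brighter probe read 5.72 with PBS, 5.78 with Fc, 6.17 with Ecrg4(71-132) and 6.17 with Ecrg4(133-148) in set 1. In set 2 it read 6.34, 6.24, 6.16 and 6.32. Both fragments were 0.38 to 0.39 above Fc in set 1, where both also lay above PBS. In set 2 the same differences from Fc were -0.08 with Ecrg4(71-132) and 0.08 with Ecrg4(133-148). The dimmer Bcl2l1 probe gave a like pattern, with 0.46 in set 1 and -0.12 in set 2 for Ecrg4(71-132) against Fc. The set 1 difference was thus seen by both probes and not in set 2.

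Mcl1 encodes a short-lived pro-survival protein. Its brighter probe read 6.15, 6.24, 6.30 and 6.25 in set 1 and 6.63, 6.75, 6.54 and 6.69 in set 2, in the order PBS, Fc, Ecrg4(71-132) and Ecrg4(133-148). By this probe every value of set 2 lay above every value of set 1. The dimmer probe read 4.23, 4.40, 4.68 and 4.62 in set 1 and 4.49, 4.67, 5.29 and 4.99 in set 2. The 2 probes disagreed: for Ecrg4(71-132) against Fc the brighter one differed by 0.06 in set 1 and -0.20 in set 2, and the dimmer one by 0.29 and 0.62. For Ecrg4(133-148) against Fc the brighter probe differed by 0.01 and -0.05 and the dimmer one by 0.22 and 0.32. No direction is given for Mcl1 for that reason.

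**Figure D1:**
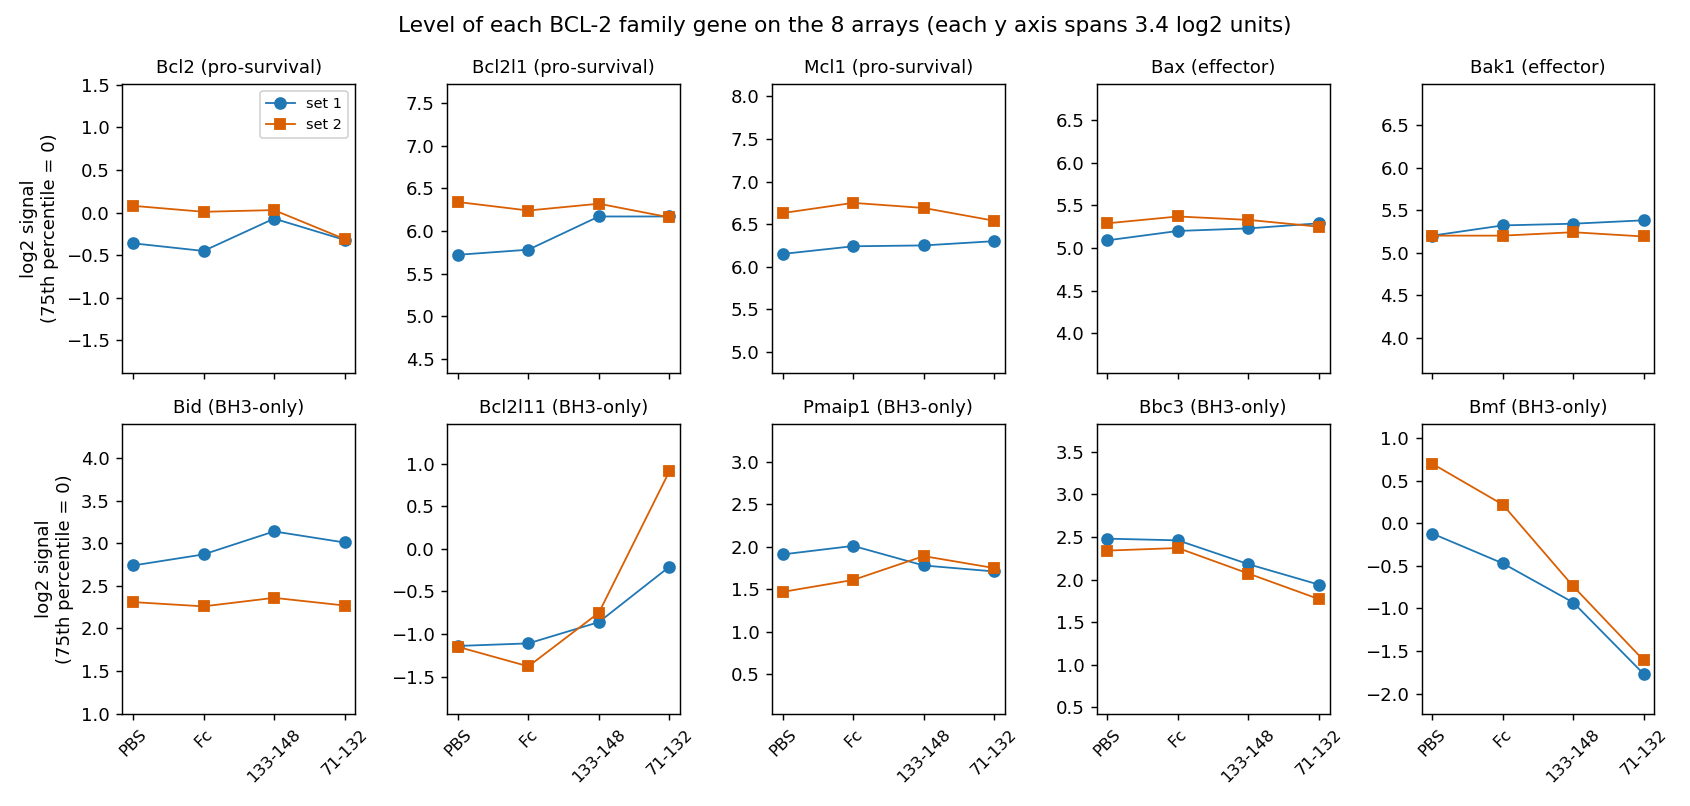
Level of each of the 10 genes on the 8 arrays (y axis, log2 signal with the 75th percentile at 0, spanning the same number of log2 units in each panel) by treatment (x axis), with circles for set 1 and squares for set 2 and lines that join the arrays of a set. Bcl2l11 is highest with Ecrg4(71-132) in both sets (-0.21 and 0.91), Bmf is lowest there (-1.77 and -1.61), and Bax and Bak1 are almost level.

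The effectors BAX and BAK form the pores in the outer mitochondrial membrane. Bax read 5.09 with PBS, 5.20 with Fc, 5.29 with Ecrg4(71-132) and 5.23 with Ecrg4(133-148) in set 1, and 5.29, 5.37, 5.25 and 5.33 in set 2. Bak1 read 5.20, 5.32, 5.38 and 5.34 in set 1 and 5.20, 5.20, 5.19 and 5.24 in set 2. These were the steadiest members: no difference between treatments within a set was over 1.09-fold in the 4 comparisons. The 95% interval of the mean difference between Ecrg4(71-132) and Fc ran from -0.38 to 0.34 for Bax and from -0.31 to 0.37 for Bak1. With the set added to the fit as a block, it ran from -0.24 to 0.2 for Bax and from -0.16 to 0.22 for Bak1.

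Of the 5 BH3-only genes, Bid encodes the protein that links death receptors to mitochondria once caspase-8 has cleaved it. It read 2.74, 2.87, 3.01 and 3.14 in set 1 and 2.31, 2.26, 2.27 and 2.36 in set 2, in the order PBS, Fc, Ecrg4(71-132) and Ecrg4(133-148). Set 2 was lower in all 4 treatments, and within a set no fragment differed from Fc by more than 1.20-fold.

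Pmaip1 encodes NOXA, a partner of MCL1. It read 1.91, 2.01, 1.71 and 1.78 in set 1 and 1.47, 1.61, 1.75 and 1.89 in set 2, in the same order. The differences from Fc had opposite signs in the sets, at -0.29 and 0.14 with Ecrg4(71-132) and at -0.22 and 0.28 with Ecrg4(133-148).

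Bcl2l11 read -1.14 with PBS, -1.11 with Fc, -0.21 with Ecrg4(71-132) and -0.86 with Ecrg4(133-148) in set 1. In set 2 it read -1.15, -1.38, 0.91 and -0.75. The order was Ecrg4(71-132), then Ecrg4(133-148), then Fc and PBS, which changed places between the sets. With Ecrg4(71-132) it was 1.87-fold higher than Fc in set 1 and 4.91-fold higher in set 2. The mean log2 difference was 1.60 (SE 0.37, 95% interval 0.67 to 2.53, n = 2 arrays each; limma, adjusted p = 1). Without the Ecrg4(71-132) array of set 2 the mean was 1.04. Against PBS the differences were 0.94 and 2.06.

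A second, dimmer Bcl2l11 probe was well above background on 7 of 8 arrays, all but Fc of set 2. It read -3.21, -3.34, -3.42 and -3.42 in set 1, and -3.63, -3.68, -1.97 and -3.31 in set 2. For Ecrg4(71-132) against Fc it differed by -0.08 in set 1, so the set 1 difference was seen by the brighter probe only. No difference from Fc is given for it in set 2, where its Ecrg4(71-132) level was the highest of the 8 arrays. With the mean of both probes the set 1 difference was 0.41, which no longer passed 1.5-fold.

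Bmf read -0.12 with PBS, -0.47 with Fc, -1.77 with Ecrg4(71-132) and -0.93 with Ecrg4(133-148) in set 1. In set 2 it read 0.70, 0.22, -1.61 and -0.74. Both sets had 1 order, from PBS through Fc and Ecrg4(133-148) down to Ecrg4(71-132), while the PBS and Fc arrays overlapped across the sets. Bmf was 2.47-fold lower with Ecrg4(71-132) than with Fc in set 1 and 3.56-fold lower in set 2. The mean log2 difference was -1.57 (SE 0.35, 95% interval -2.46 to -0.67; limma, adjusted p = 1). Against PBS the differences were -1.65 and -2.31.

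Bbc3 read 2.48 with PBS, 2.46 with Fc, 1.94 with Ecrg4(71-132) and 2.18 with Ecrg4(133-148) in set 1, and 2.34, 2.37, 1.77 and 2.07 in set 2. PBS and Fc were within 0.04 of each other in each set, and both fragments lay below them. With Ecrg4(71-132) Bbc3 was 1.44-fold lower than Fc in set 1 and 1.51-fold lower in set 2, a mean log2 difference of -0.56 (SE 0.14, 95% interval -0.91 to -0.22; limma, adjusted p = 1). This difference was small but nearly the same size in both sets. In these bulk RNA samples, fewer cells that express a gene and less of its RNA per cell cannot be told apart.

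**Figure D2:**
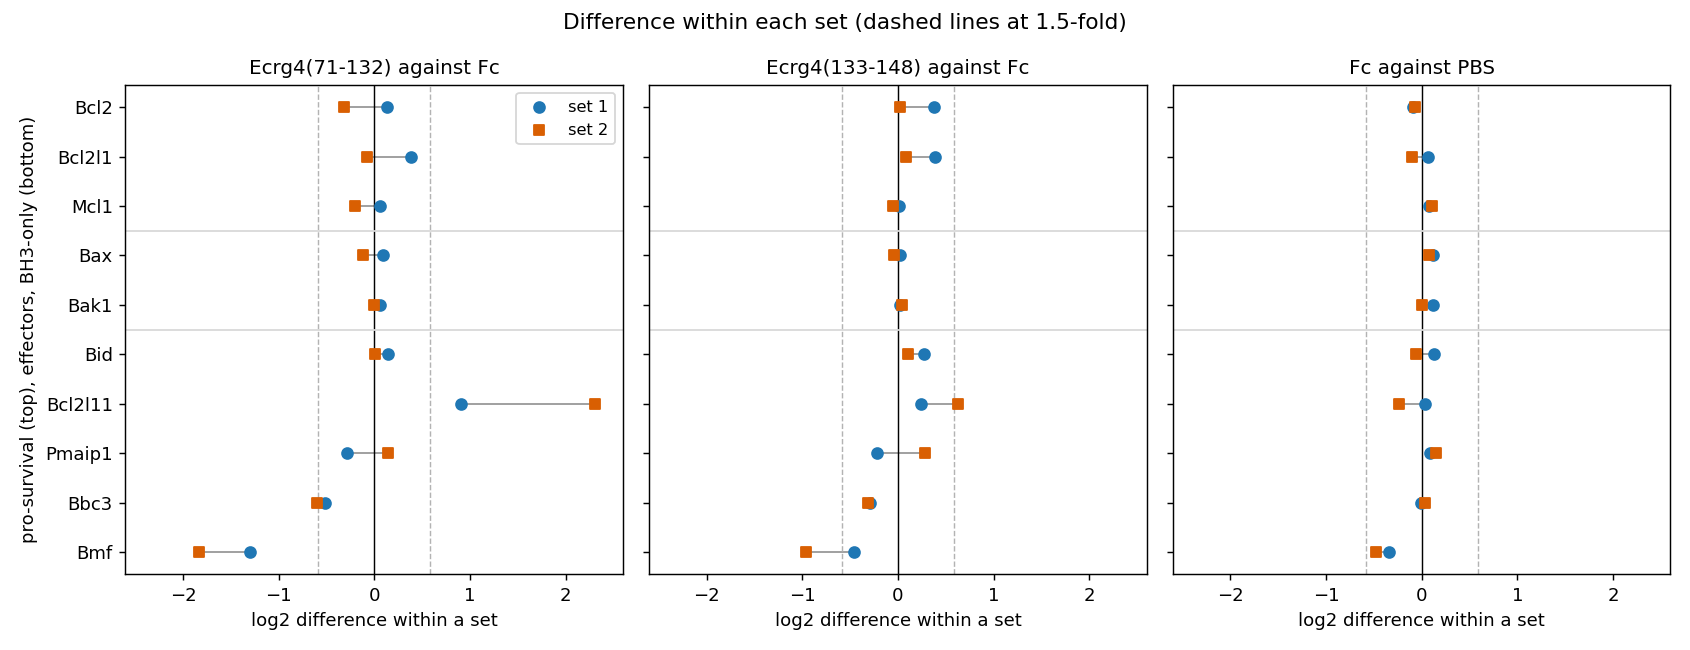
Log2 difference within each set (x axis) for the 10 genes (y axis, pro-survival at the top, then effectors, then BH3-only) in 3 comparisons, with circles for set 1, squares for set 2 and dashed lines at 1.5-fold. Bcl2l11 and Bmf lie beyond the lines in both sets for Ecrg4(71-132) against Fc, and no gene does for the other 2 comparisons shown.

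Set against all genes, 1 member (Bcl2l11) was over 1.5-fold higher in both sets with Ecrg4(71-132) than with Fc, where 1.34% of the 19120 genes were. Likewise 1 member (Bmf) was over 1.5-fold lower in both sets, where 1.43% of all genes were. Of the members, 1 had both Ecrg4(71-132) arrays above all other 6 arrays (3.69% of all genes) and 2 had both below (4.32% of all genes). Adjusted p-values called 0 members and 0% of all genes. At an unadjusted p under 0.05, limma gave 3 members and 644 genes. With the set as a block in the fit, 0 genes were called too, and 3560 genes and 3 members had an unadjusted p under 0.05. The block lowered the SE to 0.20 for Bmf and 0.06 for Bbc3 and gave adjusted p-values of 0.177 for both and 0.207 for Bcl2l11.

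As groups, the roles overlapped. For Ecrg4(71-132) against Fc, the median log2 difference of the 3 pro-survival genes was 0.13 in set 1 and -0.20 in set 2. That of the 7 pro-death genes was 0.06 and 0.00, beside -0.01 and -0.03 for all genes. The pro-death genes included both Bcl2l11, higher in both sets, and Bmf, lower in both.

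Ecrg4(133-148) shares the Fc arrays as its control. It placed 0 members over 1.5-fold higher in both sets (0.309% of all genes) and 0 lower (0.387%). Adjusted p-values called 0 members and 0% of all genes, with 88 genes and 0 members at an unadjusted p under 0.05 in limma. With the set as a block in the fit, 0 genes were called. In that fit 1007 genes and 2 members, Bmf and Bbc3, had an unadjusted p under 0.05. Bcl2l11 was 0.24 above Fc in set 1 and 0.63 in set 2, a mean of 0.44 (SE 0.37; limma, adjusted p = 1). Bmf differed by -0.46 and -0.96, a mean of -0.71 (SE 0.35; limma, adjusted p = 1). Bbc3 differed by -0.29 and -0.31. The Bmf mean was -0.37 without Fc of set 2 and -1.06 without Fc of set 1. With the set as a block and each array left out in turn, it ran from -0.9 to -0.53. The Bcl2l11 mean was 0.3 without Fc of set 2 and 0.58 without Fc of set 1. With the set as a block the Bcl2l11 mean was 0.09 without Fc of set 2 and 0.78 without Fc of set 1. Against PBS, the differences in set 1 and set 2 were 0.28 and 0.39 for Bcl2l11, -0.81 and -1.44 for Bmf, and -0.30 and -0.27 for Bbc3. Bcl2l1 and Bcl2 were 0.39 and 0.38 above Fc in set 1 and 0.08 and 0.02 in set 2.

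The fragments were then compared directly at the same mass per volume and time. Ecrg4(133-148) gave 1 member over 1.5-fold higher than Ecrg4(71-132) in both sets, Bmf (0.539% of all genes), and 1 lower, Bcl2l11 (1.12%). Bcl2l11 differed by -0.66 and -1.66, a mean of -1.16 (SE 0.37, 95% interval -2.09 to -0.23; limma, adjusted p = 1). Without Ecrg4(71-132) of set 2 this mean was -0.60, and without that of set 1 it was -1.72. With normexp background correction the set 1 difference was -0.52 and with the mean of the Bcl2l11 probes -0.33, both short of 1.5-fold. Bmf differed by 0.84 and 0.87, a mean of 0.85 (SE 0.35, 95% interval -0.04 to 1.74; limma, adjusted p = 1). Adjusted p-values called 0 members and 0% of all genes, with 1 member and 141 genes at an unadjusted p under 0.05. For Bbc3 the differences were 0.24 and 0.29, with an interval of the mean from -0.08 to 0.61. Adding the block to the fit gave narrower intervals, 0.11 to 0.42 for Bbc3 and 0.32 to 1.39 for Bmf. The adjusted p in that limma fit was 0.714 for both, and 0 genes were called. It gave 1212 genes and 3 members, Bcl2l11, Bmf and Bbc3, an unadjusted p under 0.05. The other 7 members differed by -0.06 to 0.33 within a set. Their intervals in the fit without the block, such as -0.28 to 0.86 for Bcl2 and -0.94 to 1.16 for Bid, include differences between the sets. With the set as a block these were -0.09 to 0.67 and -0.17 to 0.39. Neither fit shows that the fragments act alike on these 7 members.

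Fc alone was compared with PBS as the effect of the carrier. It placed 0 members over 1.5-fold higher in both sets (0.183% of all genes) and 0 lower (0.382%), and called 0 by adjusted p (0% of all genes; 51 genes and 0 members at an unadjusted p under 0.05). Bmf had the largest difference, at -0.34 in set 1 and -0.48 in set 2. The other 9 members differed by -0.24 to 0.15 within a set.

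**Figure D3:**
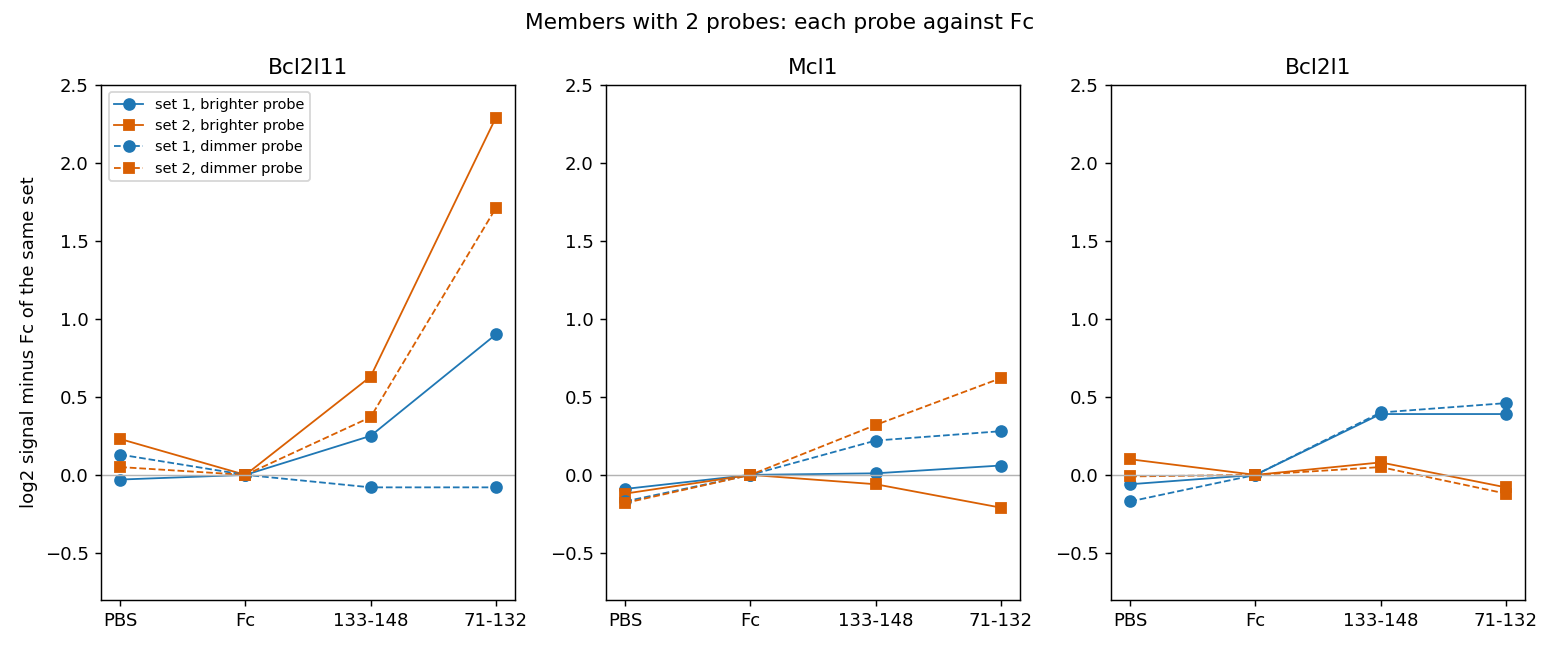
Log2 signal minus Fc of the same set (y axis) by treatment (x axis) for the 3 genes with more than 1 probe, with solid lines for the brighter probe, dashed lines for the dimmer probe, circles for set 1 and squares for set 2. The probes of Bcl2l1 run together, those of Bcl2l11 part in set 1 (0.90 and -0.08 with Ecrg4(71-132)) and those of Mcl1 part in set 2 (-0.20 and 0.62); the dimmer Bcl2l11 probe was not well above background on Fc of set 2, so the size of its dashed set 2 line is uncertain.

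The sets also differed in the levels of the family. In all 4 treatments, 3 members (Bcl2, Mcl1 and Bmf) were higher in set 2 than in set 1, as 43.4% of all genes were. Another 3 (Bak1, Bid and Bbc3) were lower in set 2 in all 4, as 27% of all genes were, although Bak1 with PBS was 5.20 in both sets after rounding. The fibroblast and astrocyte markers and Cx3cr1 differed between the sets as given above.

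Other genes of the cell death pathway were taken as lists around the members, and 59 of 66 were measured. For Ecrg4(71-132) against Fc, 2 were over 1.5-fold higher in both sets (1.34% of all genes) and 2 lower (1.43% of all genes). The median of the 59 was -0.01 in set 1 and -0.04 in set 2, beside -0.01 and -0.03 for all genes. Cflar, which encodes c-FLIP, the inhibitor of caspase-8 at death receptors, was 0.68 and 2.48 higher, from 1.52 to 2.20 in set 1 and from 1.48 to 3.96 in set 2. Gadd45a, a DNA damage response gene, was 0.72 and 1.56 higher. Trp53inp1, which encodes a p53-induced nuclear protein, differed by -0.98 and -1.69, and Sesn1, another p53 target, by -0.93 and -1.25. The adjusted p in limma was 1 for all 4. Of these 4, Gadd45a, Trp53inp1 and Sesn1 belong to the p53 list of 12 genes, whose median was -0.16 in set 1 and -0.11 in set 2.

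For Ecrg4(133-148) against Fc, 1 of the 59 passed 1.5-fold in both sets, Trp53inp1, at -0.62 and -0.69 (0.387% of all genes were lower). Against Ecrg4(71-132), Sesn1 was 0.60 and 0.88 higher with Ecrg4(133-148) (0.539% of all genes) and Gadd45a differed by -0.63 and -0.84 (1.12%). None of the 59 passed 1.5-fold in both sets for Fc against PBS (0.183% of all genes higher and 0.382% lower). Among the other pro-survival relatives, Bcl2a1d is known as a target of NF-kB and read 7.66, 7.92, 8.27 and 7.95 in set 1 and 8.41, 8.60, 8.90 and 8.81 in set 2. Its near-identical copies may share the probe, so its identity is uncertain. Its differences from Fc with Ecrg4(71-132) were 0.36 and 0.30.

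**Figure D4:**
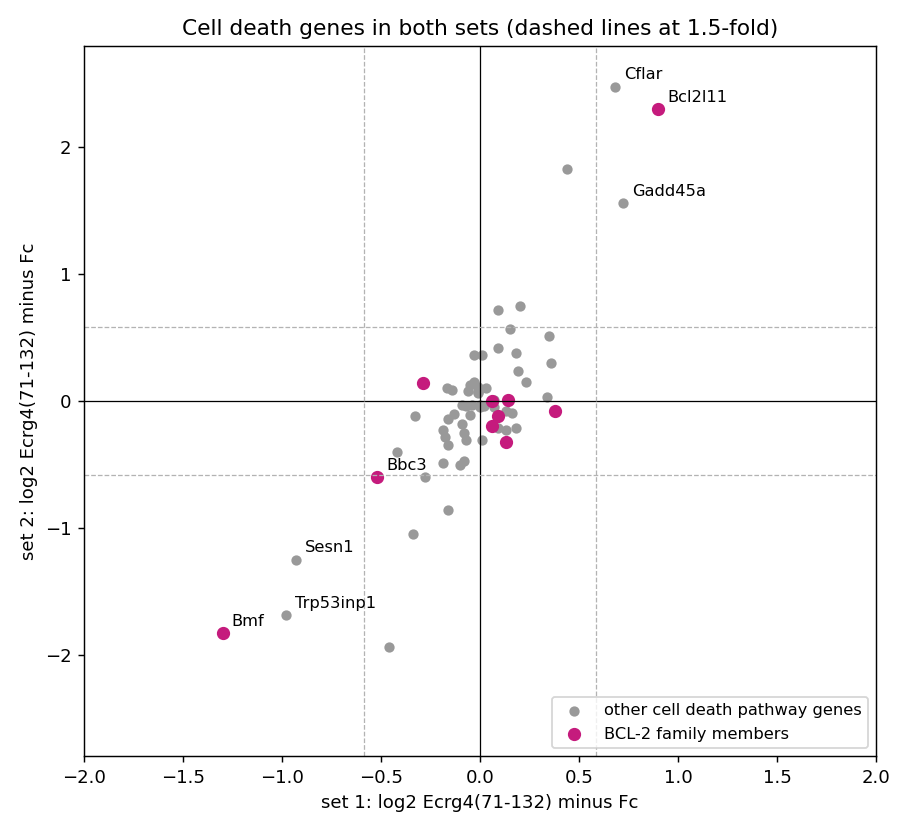
Log2 difference between Ecrg4(71-132) and Fc in set 1 (x axis) and set 2 (y axis) for the 10 members (magenta) and the 59 other cell death pathway genes measured (grey), with dashed lines at 1.5-fold. The members Bcl2l11 (0.90 and 2.30) and Bmf (-1.30 and -1.83) lie in opposite corners, and most points lie near the origin.

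Genes with the most similar levels were found for the 3 members that varied most after the mean of each set was subtracted, Bmf (SD 0.82), Bcl2l11 (SD 0.74) and Bbc3 (SD 0.25). Likeness was the root mean square difference of these centred levels over the 8 arrays, which share the treatments and the scaling. Only genes with a symbol, 12597 of the 19120 measured, were searched. For Bmf the nearest were 0610040J01Rik (0.08), the dim gene Lrrc39 (0.13) and Armc2 (0.14). For Bcl2l11 they were Slc6a12, a betaine and GABA transporter gene (0.08), Slc13a3, a dicarboxylate transporter gene (0.16), and Jak2, a cytokine receptor kinase gene (0.16). For Bbc3 they were Ago4 (0.03), Fam189b (0.04) and Pcmtd2 (0.04). The remaining members varied less, from an SD of 0.05 for Bak1 to 0.17 for Bcl2l1.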

How the data were processed

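Spot intensities on a linear scale, background-subtracted, were deposited by the authors for the 8 arrays, and the submitters' processing notes name Agilent Feature Extraction 11.0.1.1. The authors also deposited a table of log2 values, which matched log2 of these intensities minus 1 constant per array and was used as an alternative. The sources used here do not give how that constant was chosen.

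From the intensities, log2 signal minus the 75th percentile of each array was computed. Outlying spots were left out and spots of a probe averaged. Of 55681 probes, 28026 were named through RefSeq accessions (GRCm38.p6). No probe coordinates are given, because the array was designed on another build. Probes were kept if both arrays of some treatment had them well above background, and the brightest stood for its gene. Limma 3.58.1 (R 4.3.3) was fitted with 1 mean per treatment, 4 residual degrees of freedom and Benjamini-Hochberg adjustment over 19120 genes at 0.05. The calculation was also run on simulated data. The simulated noise of each gene was capped at the median spread, so that run does not measure the power of the fit on these arrays. The number of arrays limits the precision.

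Members, lists, motifs and tests were chosen with earlier results of these data known. A mean with its SE and adjusted p is given where both sets had 1 sign and 1 of them passed 1.5-fold, and intervals alone for some other members. Pathway genes are named where both sets passed 1.5-fold, apart from Bcl2a1d, named after its values were seen. Differences between the sets correlated at 0.783 to 0.862 across genes between treatments, so the sets were taken as pairs in fits with a block. Alternatives were normexp correction (offset 50), quantile and median scaling, the deposited table, probe and filter rules, fold thresholds, the block and each array left out.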

Additional observations from a re-analysis of the deposited data

How the results depend on the processing

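Under the scaling, background, probe, filter and table settings, none of the named means of Bcl2l11, Bmf and Bbc3 changed sign. Of their 24 single-set differences 2 did, both for Fc against PBS and of 0.04 or less, as did 14 of the 56 of the other 7 members. The largest of these 14 was Mcl1 for Ecrg4(71-132) against Fc in set 2, at -0.20 and, with the mean of probes, 0.21. Log2 differences between Ecrg4(71-132) and Fc ran from 1.21 to 1.66 for Bcl2l11, from -1.57 to -1.36 for Bmf and from -0.57 to -0.50 for Bbc3 over these settings. With each array left out in turn they ran from 1.04 to 2.16, -1.91 to -1.22 and -0.64 to -0.48. With the set as a replicate block, 0 genes and 0 members passed, and the lowest adjusted p of a member was 0.177. With the block and an array left out, 0 to 482 genes passed for Ecrg4(71-132) against Fc and 0 to 1 members. Without Fc of set 1 it was 1 gene. Without Ecrg4(71-132) of set 1 it was 482 genes and 1 member, Bcl2l11, at 2.18 (SE 0.15; limma, adjusted p = 0.0489, and 0.0489 to 0.813 over the 8 such fits), which left set 2 alone for that fragment, with its spread assumed to be that of the other treatments. The block changed no other call. With the mean of probes, the counts of members past 1.5-fold in both sets became 0 higher for Ecrg4(71-132) against Fc and 0 lower for Ecrg4(133-148) against Ecrg4(71-132), and the latter was also 0 with normexp. At 2-fold these 2 counts and that of members higher with Ecrg4(133-148) than with Ecrg4(71-132) were 0. With any difference of 1 sign, 2 members were higher and 2 lower for Ecrg4(71-132) against Fc (5448 and 6965 of all 19120 genes), 5 and 2 for Ecrg4(133-148) against Fc (5440 and 5849), 6 higher for Ecrg4(133-148) against Ecrg4(71-132) (6397), and 3 and 2 for Fc against PBS (7576 and 3192). Counts over both sets were not computed with an array left out. Median scaling moved the median of all genes to 0.11 in set 1 for Ecrg4(71-132) against Fc and to 0.16 for Fc against PBS, and left 1 member higher in set 2 than in set 1 in all 4 treatments, against 3. Without a filter the median of all genes was -0.23 in set 2 for Ecrg4(71-132) against Fc and -0.15 for Ecrg4(133-148) against Fc. The dimmer Bcl2l11 probe lay close to background.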
